A study of Mus musculus with 18 samples.

Results

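Xlr, Xlr3a, Xlr3b, Xlr3c, Xlr4a, Xlr4b and Xlr4c are 7 X-linked genes of the mouse Xlr family, taken by name from the 52636 genes of a poly-A RNA-seq study of Pcgf6 knockout (KO) and wild-type (WT) mice. The family was chosen by measured values, since Xlr4b and Xlr4c had passed the test for KO against WT brain, so all brain values of these genes are given as a description with no test. Poly-A RNA was sequenced from KO liver, KO brain and KO testis, and from WT liver, WT brain and WT testis, with 3 libraries in each group and 18 in all. All mice were male C57BL/6 animals aged 8 weeks. In each tissue the KO libraries are called 4, 5 and 6 and the WT libraries 1, 2 and 3, after their titles. The labels do not say how the Pcgf6 allele was made, in which cells it is lost, or whether each library came from a mouse of its own.

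PCGF6 is a subunit of PRC1.6, a polycomb complex that keeps germ cell genes silent in other cells and that carries the DNA-binding partners MGA with MAX and E2F6 with its dimer partner. Xlr stands for X-linked lymphocyte-regulated: Xlr itself was found as a gene of late-stage lymphoid cells, and the Xlr3 and Xlr4 genes are multicopy relatives. Their proteins are nuclear and related to SYCP3, an axis protein of the synaptonemal complex, and XLR3 protein is known from the XY body of meiotic spermatocytes. In mouse brain Xlr3b, Xlr4b and Xlr4c are known as imprinted genes, with the maternal copy the more active, and a male has only a maternal X chromosome.

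The Xlr3 and Xlr4 genes lay together on the X chromosome of mm10 (GRCm38) within 191.045 kb, and Xlr lay 19.277 Mb away. In the files Xlr4a (ENSMUSG00000079845) covers chrX:73074345-73082478 on the minus strand, and Xlr3a (ENSMUSG00000057836) covers chrX:73086293-73097095 on the minus strand. Xlr3b (ENSMUSG00000073125) covers chrX:73192207-73202930 and Xlr4b (ENSMUSG00000067768) covers chrX:73214333-73222453, both on the plus strand. Xlr4c (ENSMUSG00000031362) covers chrX:73233688-73243130 and Xlr3c (ENSMUSG00000058147) covers chrX:73254540-73265390, both on the minus strand. Xlr (ENSMUSG00000054626) covers chrX:53777118-53797706 on the minus strand. The values are per gene over its exons, and no exon of these 7 genes overlapped an exon of another gene in GENCODE M21, whose coordinates for them were the same as in the files.

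The copies were nearly identical in their coding sequence. The Xlr4 copies, each with a coding sequence of 645 bases, matched each other at 98.91% to 99.53% of positions, and Xlr4b and Xlr4c differed at 3 bases. The Xlr3 copies, with 678 coding bases, matched at 98.23% to 99.41%. Xlr3 against Xlr4 copies reached 55.48% to 56.2%, and Xlr, with 624 coding bases, matched the other members at 49.79% to 50.58%, with gaps counted as differences. The families are therefore close within and far apart between.

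The promoters repeated this grouping, and 5 are printed to show what the Xlr4 copies share and what the Xlr3 genes and Xlr have in its place. Each is the 250 bases before the RefSeq start of the gene, read 5′ to 3′ on the gene's strand from the GRCm38.p6 table, in which all 7 members matched. They lie at chrX:73214083-73214332 (Xlr4b, plus strand), chrX:73243131-73243380 (Xlr4c, minus strand), chrX:73191929-73192178 (Xlr3b, plus strand), chrX:73097096-73097345 (Xlr3a, minus strand) and chrX:53797707-53797956 (Xlr, minus strand). The start used for Xlr3b is 28 bases, and that for Xlr4a 29 bases, upstream of the gene's start in the files. Capitals mark matches, on either strand, to CCAATCA, the box bound by NF-Y, to GCATGCGC, the core of the NRF1 site, or to TTCCCGC, an E2F site.
Xlr4b: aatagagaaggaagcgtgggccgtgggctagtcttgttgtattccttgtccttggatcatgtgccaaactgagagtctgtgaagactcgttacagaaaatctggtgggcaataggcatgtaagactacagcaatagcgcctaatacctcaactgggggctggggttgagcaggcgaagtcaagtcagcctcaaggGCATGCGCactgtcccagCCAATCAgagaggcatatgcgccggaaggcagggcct
Xlr4c: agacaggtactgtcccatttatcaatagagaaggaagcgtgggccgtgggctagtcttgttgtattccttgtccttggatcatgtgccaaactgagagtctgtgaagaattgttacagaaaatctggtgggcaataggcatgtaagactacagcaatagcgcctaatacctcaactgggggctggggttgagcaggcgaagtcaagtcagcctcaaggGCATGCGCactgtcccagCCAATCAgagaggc
Xlr3b: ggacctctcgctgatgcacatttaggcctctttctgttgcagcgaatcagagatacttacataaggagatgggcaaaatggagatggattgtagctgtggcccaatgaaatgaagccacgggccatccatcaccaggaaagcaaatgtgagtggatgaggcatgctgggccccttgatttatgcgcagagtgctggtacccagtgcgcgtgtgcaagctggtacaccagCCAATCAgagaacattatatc
Xlr3a: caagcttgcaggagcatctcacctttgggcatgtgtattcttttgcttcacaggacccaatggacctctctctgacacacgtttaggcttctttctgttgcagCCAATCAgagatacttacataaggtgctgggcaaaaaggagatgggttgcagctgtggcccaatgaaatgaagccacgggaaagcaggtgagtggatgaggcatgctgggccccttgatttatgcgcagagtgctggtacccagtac
Xlr: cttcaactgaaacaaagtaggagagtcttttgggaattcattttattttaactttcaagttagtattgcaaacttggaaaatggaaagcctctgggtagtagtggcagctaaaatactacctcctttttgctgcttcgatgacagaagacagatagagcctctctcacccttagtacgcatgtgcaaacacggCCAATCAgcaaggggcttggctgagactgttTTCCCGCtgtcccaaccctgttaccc

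All 7 promoters held CCAATCA once, a word found in 7.23% of 32851 RefSeq promoters of the same length. It began 37, 44 and 14 bases before the start of Xlr4b, Xlr4a and Xlr4c, and 57 before that of Xlr. In Xlr3b, Xlr3a and Xlr3c it began 21, 147 and 228 bases before the start, so the word does not mark one common position. GCATGCGC was in the 3 Xlr4 promoters and in none of the other 4 members, against 2.26% of all promoters, and it began 55 bases before the start of Xlr4b, 62 before that of Xlr4a and 32 before that of Xlr4c. TTCCCGC was in the promoter of Xlr, 26 bases before its start, and in no other member, against 3.82% of all promoters. CACGTG, the E-box read by MGA and MAX, was in none of the 7 and in 6.02% of all promoters. The motifs do not overlap each other, and the CCAAT and NRF1 words were picked after the sequences had been seen. With gaps counted as differences, the Xlr4 promoters matched each other at 98.18% to 99.12% of aligned positions and those of Xlr3b and Xlr3c at 98.26%. Xlr3a matched those 2 at 85.44% and 86.02%, with 13 mismatched bases in 206 aligned positions and 9 in 186, the other differences being gaps. CpG sites numbered 8 in Xlr4a and Xlr4b, 5 in Xlr4c, 6 in Xlr3b and Xlr3c, 3 in Xlr3a and 4 in Xlr, with a median of 6 and quartiles of 2 and 16 over all promoters.

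Levels are given in FPKM, reads per kilobase of gene scaled by a library size that the authors set. Liver libraries held 18990130 to 23529098 reads, brain libraries 20759022 to 23183662 and testis libraries 20098777 to 23335596. The library sizes behind FPKM were not these totals, which were 1.44 to 1.52 times the size used for liver, 0.806 to 0.835 times that for brain and 0.823 to 0.969 times that for testis, so a level compared between tissues carries that scaling. Pcgf6 transcript averaged 1.92 ± 0.650 FPKM in KO and 4.91 ± 0.793 in WT liver, 3.98 ± 0.595 in KO and 5.02 ± 0.380 in WT brain, and 9.93 ± 0.591 in KO and 20.9 ± 1.25 in WT testis (SD, n = 3 each). No KO library reached a WT library of its tissue, and transcript remained in all. The tissues carried their own markers: 5 hepatocyte genes summed to 48182 to 55391 FPKM in KO and 46909 to 55751 in WT liver, 5 neuron genes to 520 to 570 FPKM in KO and 542 to 579 in WT brain, and 5 spermatid genes to 20144 to 29576 FPKM in KO and 17367 to 24463 in WT testis.

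The Xlr4 genes separated KO from WT libraries in both somatic tissues. Summed over Xlr4a, Xlr4b and Xlr4c, the level in liver was 14.5, 12.2 and 10.6 FPKM in KO 4, KO 5 and KO 6, against 3.21, 0.0841 and 1.36 FPKM in WT 1, WT 2 and WT 3. In brain the sum was 7.31, 7.29 and 8.27 FPKM in KO libraries and 0.652, 0.0549 and 0.105 FPKM in WT libraries. In testis it was 4.16, 3.90 and 3.54 FPKM in KO libraries and 3.66, 3.72 and 4.31 FPKM in WT libraries. KO and WT libraries did not overlap in liver or brain and overlapped in testis. The mean sum was 12.4 ± 1.98 in KO and 1.55 ± 1.57 in WT liver (8.02 times), 7.62 ± 0.563 in KO and 0.271 ± 0.331 in WT brain (28.2 times), and 3.86 ± 0.312 in KO and 3.89 ± 0.357 in WT testis (0.992 times; SD, n = 3 each). WT 1 held the highest WT sum in both somatic tissues, and without it the ratio was 17.3 in liver and 95.4 in brain.

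Ordered by level, the Xlr4 sum was highest in KO liver, then KO brain, WT testis, KO testis, WT liver and WT brain. The testis groups differed from each other by less than their SD, and WT liver and WT brain by less than the SD of WT liver. Relative to WT testis the sum was 319% in KO and 39.8% in WT liver, and 196% in KO and 6.95% in WT brain. With library totals in place of the authors' library sizes the shares were 186% in KO and 23.4% in WT liver, and 209% in KO and 7.32% in WT brain, which puts KO brain above KO liver. The Xlr3 sum was highest in KO brain, then KO liver, WT liver, WT testis, WT brain and KO testis. KO and WT liver differed by less than the SD of WT liver, and the last 3 groups by less than the SD of WT testis. Relative to WT testis the Xlr3 sum was 371% in KO and 90.4% in WT brain and 312% in KO and 229% in WT liver. With library totals it was 391.6% in KO and 95.7% in WT brain and 181% in KO and 135% in WT liver, which leaves the order of the groups as it was. In either scaling the KO somatic tissues held more Xlr4 RNA per length than testis of either genotype did on average. In bulk tissue, fewer cells with a transcript and less transcript per cell cannot be told apart.

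**Figure D1:**
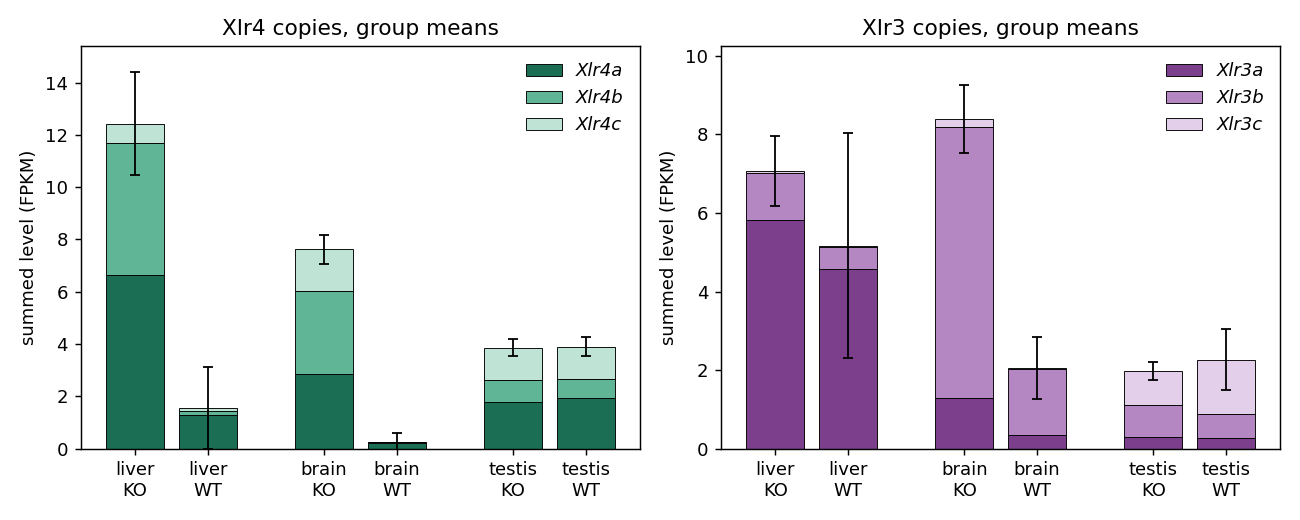
Summed FPKM of the Xlr4 copies (left) and the Xlr3 copies (right), as group means stacked by gene, with error bars for the SD of the sum over 3 libraries. The Xlr4 sum is 12.4 in KO and 1.55 in WT liver and 3.86 in KO and 3.89 in WT testis, and the Xlr3 copy with the highest FPKM differs by tissue: Xlr3a in liver, Xlr3b in brain and Xlr3c in WT testis, where Xlr3b held slightly more of the reads (40.3% against 39.4%).

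The liver values were not used to choose the members, but the labels do not say whether liver and brain libraries of the same number came from one mouse, so liver is not known to be independent of brain. In liver Xlr4b measured 6.44, 5.95 and 2.69 FPKM in KO 4, KO 5 and KO 6, against 0, 0.0255 and 0.446 FPKM in WT 1, WT 2 and WT 3. These values rest on 207, 236 and 89 reads in KO libraries and on 0, 1 and 17 reads in WT libraries. Xlr4b encodes one of the nuclear proteins of the Xlr4 group, and every KO library stood above every WT library. The means were 5.02 ± 2.04 in KO and 0.157 ± 0.250 in WT (32.0 times; SD, n = 3 each), and the log2 difference of FPKM + 0.1 was 4.66 ± 0.67 (SE; limma adjusted p = 0.349). This scale understates the change of low genes.

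Xlr4a, the copy at the far end of the cluster, measured 7.63, 5.08 and 7.25 FPKM in KO and 3.14, 0 and 0.700 FPKM in WT liver libraries. The reads were 147, 121 and 144 in KO and 64, 0 and 16 in WT, so WT 1 alone held most of the WT signal, and the groups still did not overlap. Means were 6.65 ± 1.37 in KO and 1.28 ± 1.65 in WT, 5.19 times, and the log2 difference was 3.38 ± 1.11 (limma adjusted p = 0.970). Xlr4c, which in coding sequence is closest to Xlr4b, was the lowest of the 3 copies at 0.428, 1.21 and 0.623 FPKM in KO and 0.0675, 0.0586 and 0.210 FPKM in WT. Its means of 0.755 ± 0.409 in KO and 0.112 ± 0.0852 in WT differed 6.73 times, and its log2 difference was 1.98 ± 0.42 (limma adjusted p = 0.553). Again no WT library reached a KO library, but Xlr4c had 10 or more reads only in KO libraries.

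Xlr, the lymphoid gene that gave the family its name, also separated the genotypes in liver. It measured 0.683, 1.30 and 2.62 FPKM in KO libraries and 0.0969, 0.224 and 0.374 FPKM in WT libraries. Means were 1.53 ± 0.987 in KO and 0.232 ± 0.139 in WT, 6.61 times, with a log2 difference of 2.21 ± 0.51 (limma adjusted p = 0.624). Every KO liver library stood above every WT liver library for this gene.

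The Xlr3 genes, which encode the XY body protein, overlapped in liver. Xlr3a was the most abundant member of WT liver, at 6.52, 4.48 and 6.47 FPKM in KO and 3.82, 2.55 and 7.33 FPKM in WT (log2 difference 0.46 ± 0.36, limma adjusted p = 1.00). Xlr3b measured 1.24, 1.48 and 0.838 FPKM in KO and 0.499, 0.225 and 0.994 FPKM in WT, with WT 3 above KO 6 (1.08 ± 0.44, limma adjusted p = 1.00). Xlr3c had 4 reads over the KO and 2 over the WT libraries, under the limit for a test, and no fold is given. The Xlr3 sum was 7.07 ± 0.886 FPKM in KO and 5.17 ± 2.87 in WT liver, 1.37 times, and WT 3, at 8.37, was the highest single library. Without WT 3 that ratio was 1.98.

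Read against all genes, 0 of the 6 members tested in liver passed limma at an adjusted p under 0.05, where 3 of 14124 genes did (0.0212%). At an unadjusted p under 0.05 the 5 members Xlr4a, Xlr4b, Xlr4c, Xlr and Xlr3b were higher in KO, where 4.38% of genes differed either way and 2.56% were higher. Complete separation with KO above WT held for 4 of the 6, Xlr4a, Xlr4b, Xlr4c and Xlr, against 4.94% of all genes in that direction and 9.52% in either. The 3 Xlr4 copies share much of their transcript sequence, so their results are not independent of each other. Xlr4c entered this fit only through its KO libraries, with 12, 42 and 18 reads against 2, 2 and 7 in WT. Xlr4a, Xlr4b and Xlr also needed their KO libraries to pass the filter. Their WT reads were 64, 0 and 16 (Xlr4a), 0, 1 and 17 (Xlr4b) and 3, 8 and 13 (Xlr). The direction and separation of Xlr4c thus follow in large part from the filter, and those of the other 3 are favoured by it. Nothing is read from them, or from the counts above that include them. The median log2 difference, which includes these 4, was 2.09 for the 6 and 0.000735 for all genes. Limma voom on recovered reads also called 0 of them. A fit to all 18 libraries with a shared spread called 3 (Xlr4b, Xlr4c and Xlr, adjusted p = 8.35e-05, 0.00242 and 0.00786), where it called 87 of the 14124 genes. Its spread draws in part on the brain libraries that chose the members, so nothing is read from that count. Without WT 3 Xlr4b alone of the members was called (adjusted p = 0.0365), where 5 genes were called in all. Over 13 alternatives, of which the fit to all 18 libraries gave the lowest values, the adjusted p of Xlr4b lay between 8.35e-05 and 0.935. That of Xlr4c lay between 0.00242 and 0.999 and that of Xlr between 0.00786 and 0.999.

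**Figure D2:**
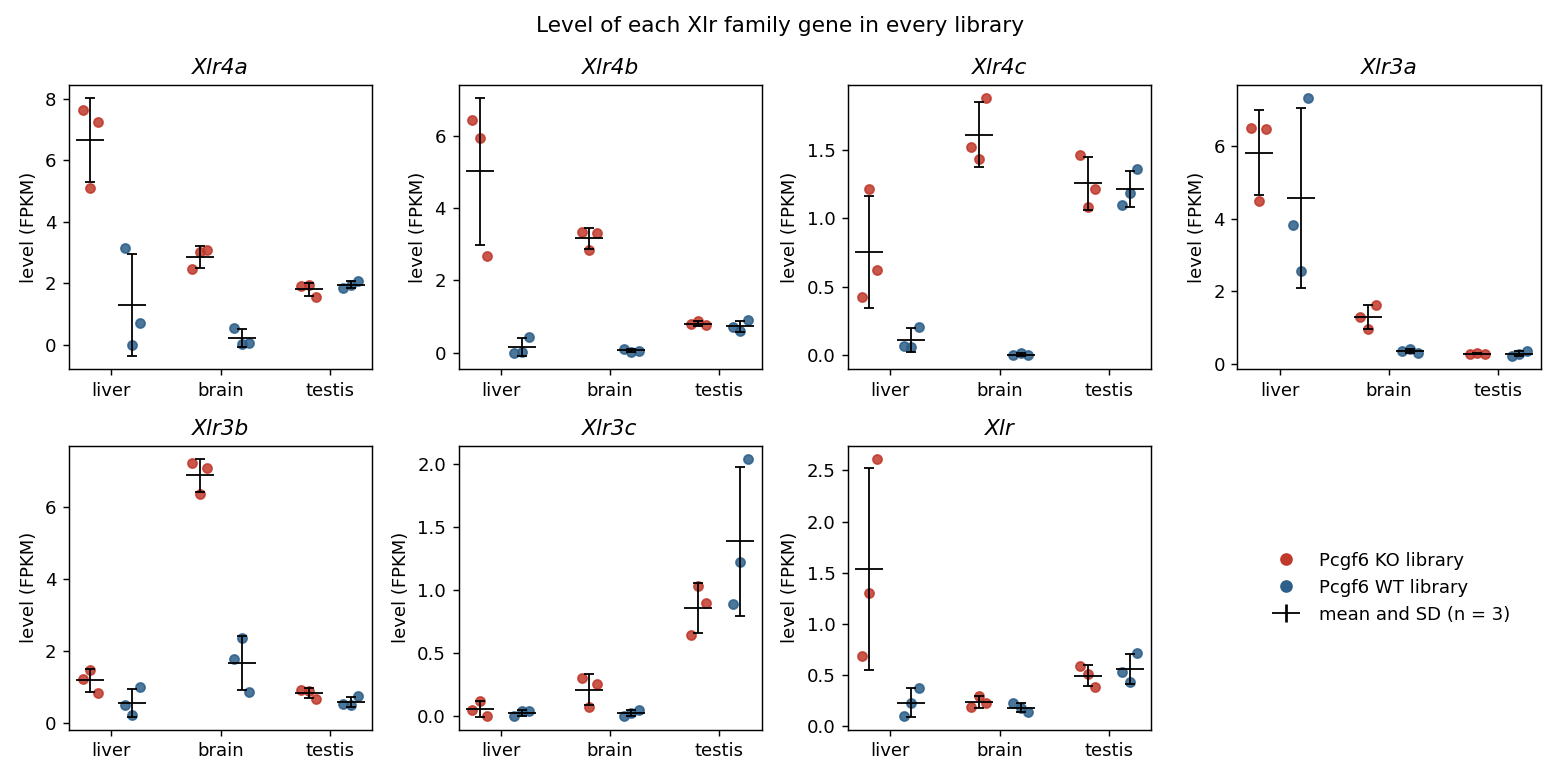
Level in FPKM of each of the 7 genes in every library, by tissue, with KO libraries in red left of WT libraries in blue and the mean and SD of 3 libraries in black. In liver the 3 Xlr4 genes and Xlr separate the genotypes, in brain all genes but Xlr do, and in testis every gene overlaps. Of all genes tested, 4.94% in liver and 4.99% in brain separate with KO higher, and 11.9% in testis separate in either direction. Brain values are a description, since the members were chosen there. Nothing is read from the liver separations, since those genes needed KO libraries to pass the filter.

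Brain is the contrast that drew attention to the family, and its values are a description only. Xlr4b measured 3.33, 2.84 and 3.32 FPKM in KO brain and 0.113, 0.0144 and 0.0572 FPKM in WT brain, with means of 3.16 ± 0.279 in KO and 0.0614 ± 0.0492 in WT, 51.6 times. Xlr4c had 85, 87 and 113 reads in KO libraries and 0, 1 and 0 reads in WT libraries. The ratio of its reads, scaled by the library sizes behind FPKM, was 296 with an exact 95% interval from 52.7 to 11738, which covers counting error only. Both genes were near 0 in every WT brain library.

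Xlr4a in brain measured 2.45, 3.02 and 3.07 FPKM in KO and 0.540, 0.0240 and 0.0477 FPKM in WT libraries, 14.0 times by the means of 2.85 ± 0.344 in KO and 0.204 ± 0.291 in WT. As in liver, WT 1 held most of the WT signal, with 23 of the 26 WT reads. Xlr3b was the most abundant member in brain: 7.21, 6.36 and 7.08 FPKM in KO and 1.78, 2.36 and 0.862 FPKM in WT. Its means were 6.88 ± 0.460 in KO and 1.67 ± 0.755 in WT, 4.13 times, so unlike the Xlr4 copies it was well above 0 in WT brain.

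Xlr3a measured 1.29, 0.972 and 1.63 FPKM in KO and 0.365, 0.401 and 0.299 FPKM in WT brain, 3.66 times by its means. Xlr3c had 26 reads over the KO and 3 over the WT brain libraries, a ratio of 9.01 with an exact 95% interval from 2.76 to 46.5. Xlr stood apart from the rest: 0.189, 0.299 and 0.223 FPKM in KO and 0.232, 0.174 and 0.141 FPKM in WT brain, with WT 1 above KO 4 and KO 6. The Xlr3 sum was 8.39 ± 0.863 FPKM in KO and 2.05 ± 0.793 in WT brain, 4.10 times. Of 6 members with enough reads in brain, Xlr4b and Xlr4c passed the limma threshold that chose them, where 0.0837% of 17922 genes did, and 5 had every KO library above every WT library, where 4.99% of genes did. Nothing is read from these counts, since the brain values chose the genes.

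Testis, where the Xlr genes are expressed in WT animals, gave no separation between genotypes for any member. Xlr4a measured 1.90, 1.94 and 1.56 FPKM in KO and 1.84, 1.95 and 2.05 FPKM in WT testis. Xlr4b measured 0.794, 0.869 and 0.760 FPKM in KO and 0.715, 0.591 and 0.895 FPKM in WT, and Xlr4c 1.46, 1.09 and 1.22 FPKM in KO and 1.10, 1.18 and 1.36 FPKM in WT. KO and WT libraries were interleaved for each of these 3 genes.

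Xlr3c, the leading Xlr3 copy of WT testis by FPKM but not by reads, measured 0.641, 1.03 and 0.896 FPKM in KO and 0.893, 1.23 and 2.04 FPKM in WT. Its log2 difference of -0.59 ± 0.31 was the lowest of the 7 (limma adjusted p = 0.871). Xlr3b, at 0.923, 0.904 and 0.676 FPKM in KO and 0.528, 0.513 and 0.747 FPKM in WT, had the highest, 0.43 ± 0.21 (limma adjusted p = 0.871). Xlr3a stayed between 0.273 and 0.295 FPKM in KO and between 0.216 and 0.344 FPKM in WT. Xlr measured 0.587, 0.511 and 0.382 FPKM in KO and 0.535, 0.433 and 0.719 FPKM in WT. The Xlr3 sum was 1.97 ± 0.221 FPKM in KO and 2.26 ± 0.777 in WT testis, 0.872 times, and 1.08 times without WT 3.

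In testis limma called 0 of the 7 members, where 1 of 22341 genes was called (0.00448%), and 0 members had an unadjusted p under 0.05, where 4.13% of genes did. No member separated the genotypes completely, where 11.9% of genes did, and limma voom called none of them. The median log2 difference was 0.03 for the members and 0.03 for all genes. A p above the threshold does not show that the genotypes are alike in testis.

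The difference between the KO effects of testis and liver was tested directly over the 12 libraries of both tissues. Xlr4b had the largest of the 6 members, -4.52 ± 0.74 on the log2 scale, its effect being 0.14 in testis and 4.66 in liver (limma adjusted p = 0.0907, and 0.000406 to 0.458 over 16 alternatives). The differences were -3.50 ± 1.22 for Xlr4a, -2.36 ± 0.59 for Xlr and -1.93 ± 0.46 for Xlr4c (limma adjusted p = 0.933, 0.564 and 0.524). Those of Xlr3b and Xlr3a were -0.65 and -0.43 (limma adjusted p = 0.987 for both). Limma called 0 of 6 members, where 0.0457% of 13133 genes were called, and 4 had an unadjusted p under 0.05, where 4.61% of genes did. Of these 4, Xlr4c passed the liver filter only through its KO libraries. Xlr4a, Xlr4b and Xlr also needed their KO liver libraries to pass it, so nothing is read from this count. Without liver WT 3, without liver KO 6, or with a pseudocount of 1, Xlr4b was called (adjusted p = 0.000406, 0.0493 and 0.0304).

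Which Xlr3 copy had the highest FPKM differed by tissue, as the plot of stacked group means shows. Of the Xlr3 sum, Xlr3a made up 81.9% in KO and 88.9% in WT liver, 15.3% in KO and 18.7% in WT brain, and 14.4% in KO and 12.7% in WT testis. Xlr3b made up 17.3% in KO and 10.5% in WT liver, 82.3% in KO and 79.7% in WT brain, and 42.4% in KO and 27.2% in WT testis. Xlr3c was at or under 2.42% in liver and brain of both genotypes and made up 43.1% in KO and 60.2% in WT testis. The leading Xlr3 copy of a somatic tissue was thus the same in KO as in WT libraries, Xlr3a in liver and Xlr3b in brain, while in KO testis the FPKM shares of Xlr3b and Xlr3c were close. The order in testis depended on gene length: of the reads, Xlr3b held 55.6% in KO and 40.3% in WT testis, and Xlr3c held 24.1% in KO and 39.4% in WT testis. By reads Xlr3b therefore led in testis of both genotypes, while Xlr3a still led in liver (83.3% in KO and 89.3% in WT) and Xlr3b in brain (82.3% in KO and 81.1% in WT).

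Within the Xlr4 group the 3 testis shares were close between genotypes: Xlr4a 46.5% in KO and 50.1% in WT, Xlr4c 32.5% in KO and 31.1% in WT, Xlr4b 21.0% in KO and 18.7% in WT. Xlr4b took a larger share in the KO somatic tissues, 39.5% in liver and 41.6% in brain, and Xlr4c a smaller one, 6.26% in liver and 21.1% in brain. Xlr4a supplied 54.3% in KO liver and 37.4% in KO brain. These FPKM shares depend on gene length (1535 bases for Xlr4a, 2560 for Xlr4b). Of the reads, Xlr4b held 52.4% in KO liver and 50.3% in KO brain, and Xlr4a 40.6% in KO liver and 27.3% in KO brain. In testis Xlr4a held 36.2% of reads in KO and 39.5% in WT, and Xlr4c 36.6% in KO and 35.8% in WT. WT shares in liver and brain rest on as few as 3 Xlr4 reads in a library and are not given.

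The copies share much of their transcript sequence. Of all 100-base words in the GENCODE transcripts of a gene, 93.3% occurred in no other gene for Xlr, 75.6% for Xlr3a, 64.9% for Xlr3b and 53.3% for Xlr3c. The shares were 62.0% for Xlr4b, 48.1% for Xlr4c and 40.1% for Xlr4a. At 50 bases the lowest was Xlr4a with 22.3%, and at 150 bases Xlr4c with 54.6%. The read length, the treatment of reads that match several copies and the strand setting are not given in the sources used here, so values of single copies are uncertain, and the sums are given beside them. The gene lengths of Xlr3a (4045 bases) and Xlr3b (3780 bases) count all their annotated exonic bases, against 1584 bases for Xlr3c, which lowers their FPKM per read.

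**Figure D3:**
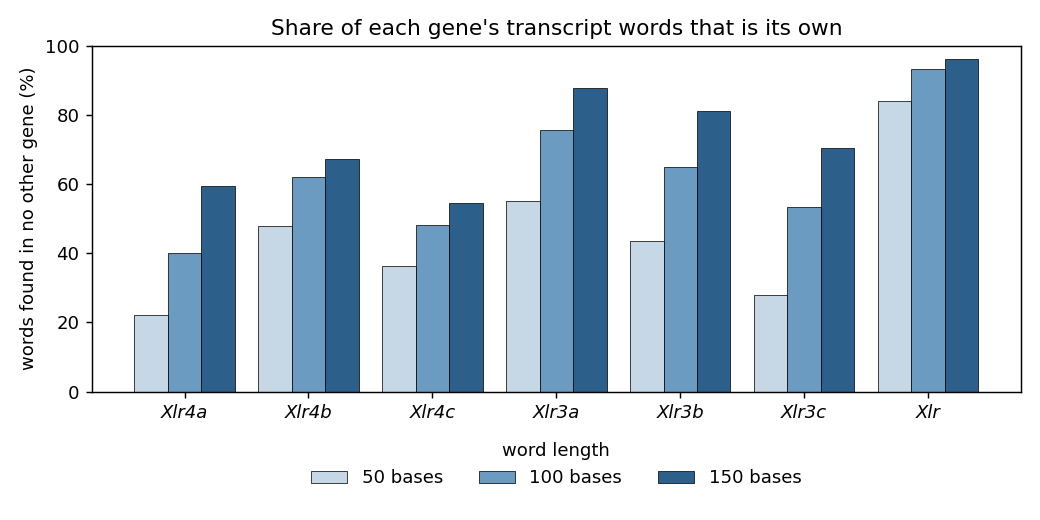
Share of the distinct 50-, 100- and 150-base words in each gene's GENCODE M21 transcripts that occur in no other gene's transcripts, in percent. Xlr is nearly all its own (93.3% at 100 bases), while Xlr4a shares the most (40.1% its own at 100 bases).

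WT testis was compared with WT liver as the pair of tissues from which the members were not chosen. Limma called 5 of the 7 members, 4 higher and Xlr3a lower in testis, where 87.7% of 21737 genes were called, 57.8% higher and 29.9% lower, so being called sets no member apart. Over all genes the median log2 difference was 1.06, and 1.62 with library totals as library sizes, and 66.0% of the calls were higher in testis, or 76.2% with library totals. Relative to that median of 1.06, Xlr3c stood 2.43 higher in WT testis, Xlr4c 1.64 higher and Xlr4b 1.06 higher, while Xlr3a stood -4.56 from it. Xlr3c and Xlr4c entered this fit only through testis, with WT liver reads of 0, 1 and 1 (Xlr3c) and 2, 2 and 7 (Xlr4c). Xlr4a, Xlr4b and Xlr also needed testis libraries to pass the filter. The filter thus favours a higher level in testis for these 5 genes, and nothing is read from that direction. The log2 differences themselves were 3.48 ± 0.31 for Xlr3c, 2.70 ± 0.28 for Xlr4c, 2.12 ± 0.62 for Xlr4b, 1.06 ± 0.34 for Xlr and -3.50 ± 0.38 for Xlr3a (limma adjusted p = 3.29e-05, 7.81e-05, 0.0154, 0.0220 and 9.45e-05). Xlr3a was thus lower in WT testis than in WT liver, at 0.216, 0.278 and 0.344 FPKM in WT testis and 3.82, 2.55 and 7.33 FPKM in WT liver, under both library sizes. Xlr4a (1.68 ± 1.15, adjusted p = 0.205) and Xlr3b (0.21 ± 0.43, adjusted p = 0.665) were not called. Without testis WT 1 or testis WT 3 the calls of Xlr4b and Xlr were lost, and without liver WT 1 Xlr4a was called (adjusted p = 0.0171, against up to 0.586 over 13 alternatives).

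Markers of other cells were set beside the Xlr4 level. The spermatid genes Acrv1, Prm1, Prm2, Tnp1 and Tnp2 summed to 0, 8.29 and 7.25 FPKM in KO 4, KO 5 and KO 6 liver and to 0.337, 0.146 and 0.624 FPKM in WT liver. In brain they summed to 0.557, 11.4 and 4.20 FPKM in KO and to 0.705, 0.471 and 5.71 FPKM in WT libraries. That is at most 0.0515% of their WT testis level in any somatic library. The Xlr4 sum was 187% to 372% of its WT testis level in the 6 somatic KO libraries. Liver KO 4 had no spermatid read and an Xlr4 sum of 14.5 FPKM. Whether RNA carried over from testis adds to the Xlr4 level was not tested.

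The ranges of the lists that follow overlapped between genotypes in liver and brain. Early meiotic genes (Stra8, Spo11, Dmc1, Meiob, Prdm9 and Sycp1) summed to 6.52 to 9.11 FPKM in KO and 5.29 to 7.04 in WT liver, and to 1.30 to 1.54 in KO and 1.23 to 1.37 in WT brain, with Stra8 at 0 in all 4 groups. Pachytene genes summed to 0.903 to 2.55 in KO and 1.80 to 2.19 in WT liver and to 11.1 to 14.6 in KO and 10.3 to 13.7 in WT brain. Spermatogonia genes, of which Kit and Uchl1 are also expressed in somatic tissue, gave 62.0 to 73.7 in KO and 50.3 to 84.4 in WT liver and 212 to 247 in KO and 233 to 278 in WT brain. Sertoli cell genes gave 6.13 to 8.40 in KO and 6.29 to 8.82 in WT liver, and Leydig cell genes 6.92 to 8.57 in KO and 6.45 to 9.43 in WT liver. In brain, hepatocyte genes reached 0.755 to 7.29 in KO and 0.222 to 13.2 in WT. Brain KO 4, with the lowest KO hepatocyte sum, held 7.31 FPKM of Xlr4, and carry-over of liver RNA was not tested. In testis the sums were 36.8 to 44.5 in KO and 42.1 to 52.3 in WT for spermatogonia, 78.3 to 93.3 in KO and 88.9 to 97.2 in WT for early meiotic genes, and 2541 to 2900 in KO and 2527 to 2622 in WT for pachytene genes.

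No gene around the cluster was called. Of 39 genes annotated within 500 kb of the outermost copies, 10 had enough reads in liver, 18 in brain and 18 in testis, and limma called 0 of them in each tissue, with 0, 3 and 2 at an unadjusted p under 0.05. Over all genes 0.0212%, 0.0837% and 0.00448% were called in liver, brain and testis, so a count of 0 among so few genes says little about them, and 4.38%, 4.46% and 4.13% had an unadjusted p under 0.05. The 3 in brain were Gabra3, Plxnb3 and Pnma3 and the 2 in testis DXBay18 and Cetn2. The neighbours' log2 differences in liver lay between -0.36 and 0.16, those in brain between -0.16 and 0.23, and those in testis between -0.37 and 1.35. F8a, which lies between Xlr4b and Xlr4c and encodes a huntingtin-associated protein, averaged 4.95 FPKM in KO and 4.43 in WT liver, 7.05 in KO and 6.58 in WT brain, and 1.68 in KO and 2.03 in WT testis. Pnma3, the nearest gene beyond Xlr4a, measured 9.37 ± 0.831 in KO and 8.24 ± 0.378 in WT brain (limma adjusted p = 1.00). Gm5639, the nearest gene on the other side that is not of the Xlr superfamily, had at most 5 reads in any group. The highest log2 difference in testis, 1.35, was that of DXBay18, at 0.543 FPKM in KO and 0.133 in WT (limma adjusted p = 0.871).

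**Figure D4:**
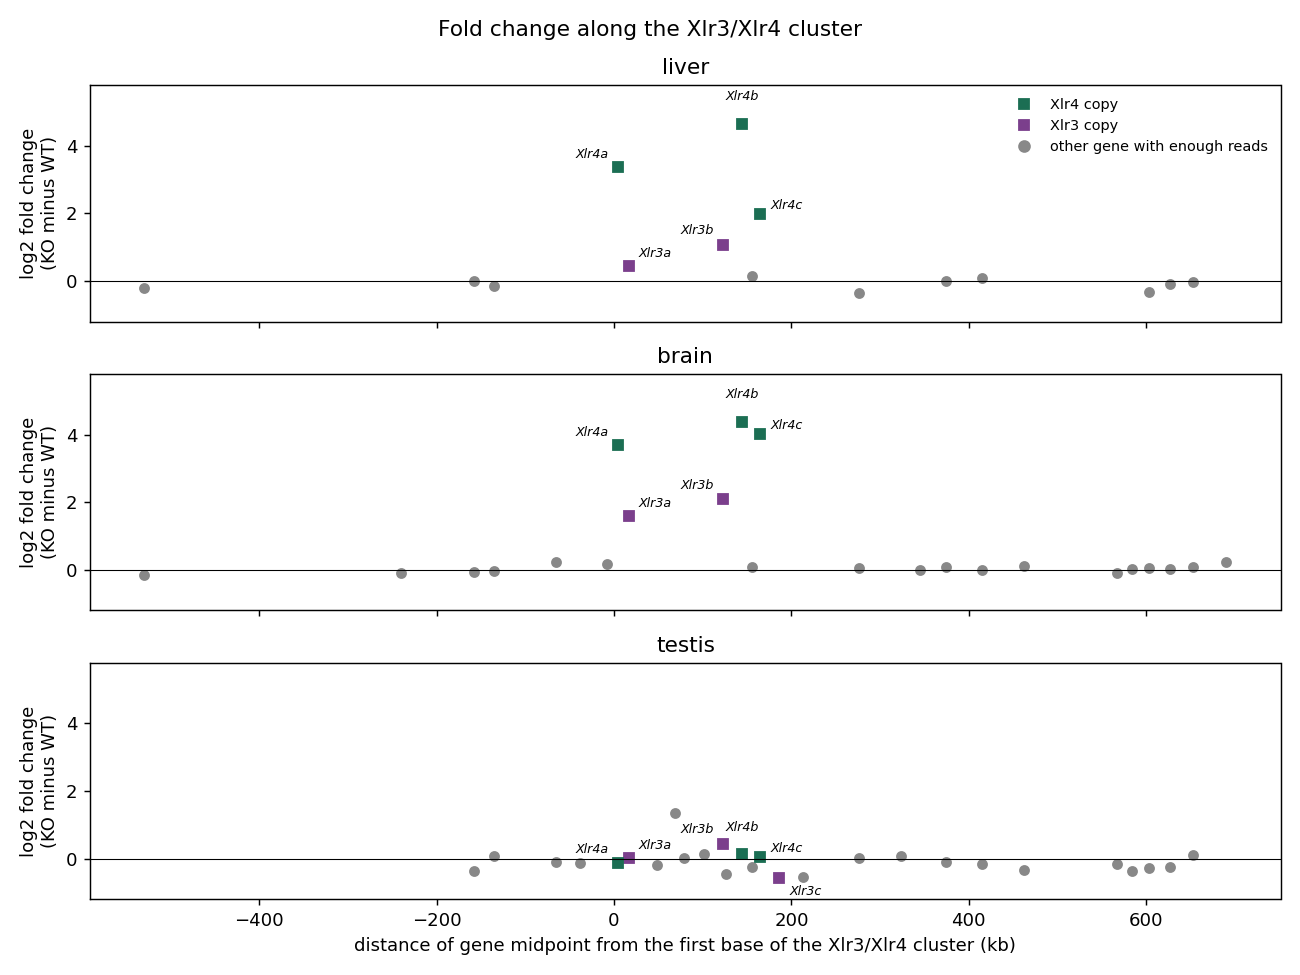
Log2 fold change, KO minus WT, of each gene with enough reads against the distance of its midpoint from the start of the Xlr3 and Xlr4 cluster, in kb, for liver, brain and testis, with Xlr4 copies in green, Xlr3 copies in purple and other genes in grey. In liver and brain the Xlr4 copies stand at 1.98 to 4.66 while other genes stay between -0.36 and 0.23, and in testis the copies lie between -0.59 and 0.43. Brain values are a description, since the members were chosen there.

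Among 12 further genes of the Xlr superfamily, limma called 0 in any tissue, with 1 tested in liver, 1 in brain and 4 in testis and 0 at an unadjusted p under 0.05. The Xlr5 genes, which lie inside or beside the same cluster, had at most 3 reads per group in liver and brain. In testis Xlr5a had 98 reads in KO and 142 in WT, Xlr5b 123 in KO and 126 in WT, and Xlr5c 66 in KO and 102 in WT. Sycp3, the synaptonemal axis relative on chromosome 10, averaged 0.543 FPKM in KO and 0.844 in WT liver, 0.658 in KO and 0.663 in WT brain, and 62.4 in KO and 70.4 in WT testis.

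Over the 18 libraries, which fall into 6 groups sharing tissue and genotype, the genes most like the Xlr4 sum by Pearson r of log2(FPKM + 0.1) were Gm4779 (0.88), 8030474K03Rik (0.86), Scarf2 (0.67), Cops7b (0.64) and Kdm8 (0.64), out of 25123 genes. Gm4779 averaged 10.5 FPKM in KO and 0.967 in WT liver, 8.64 in KO and 0.185 in WT brain, and 9.07 in KO and 7.83 in WT testis. 8030474K03Rik averaged 3.42 in KO and 0.326 in WT liver, 3.57 in KO and 0.0240 in WT brain, and 5.47 in KO and 5.85 in WT testis. Both were lowest in WT brain and next lowest in WT liver, as the Xlr4 sum was. Among the genes most like the Xlr3 sum were Gm10123 (0.77), Fermt3 (0.76), Il10ra (0.76) and Il15 (0.76), of which Gm10123 averaged 464.6 FPKM in KO and 186 in WT liver and 34.1 in KO and 44.0 in WT testis. These r values are descriptions over libraries that share groups, and carry no test.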

How the data were processed

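Poly-A RNA libraries from liver, brain and testis were made with a NEBNext kit, per the labels' protocols. The submitters' processing notes name the build mm10, the aligner HISAT2 2.0.5, the counter featureCounts 1.5.0-p3 and DESeq2 1.16.1. The authors deposited FPKM for 52636 genes per library, of which 11110 had no read in any library. The product of FPKM and gene length came in whole steps in each library (100% of values, tolerance 0.01 reads), so reads were recovered for filters, depth and voom.

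Each contrast was fitted to log2(FPKM + 0.1) by limma 3.58.1 under R 4.3.3, with a mean-variance trend. Genes entered a fit with 10 or more reads in 3 or more of its libraries, with Benjamini-Hochberg adjustment over all of them and a threshold of 0.05. The steps were tested on simulated data. Errors are SD over 3 libraries or SE of the fit. Since nothing says that libraries came from separate mice, p-values measure the spread between these libraries only. Intervals of read ratios are exact and cover counting error only.

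Samples were grouped by the labelled genotype and tissue. KO and WT libraries of a tissue share no number, so no block applies there. Across tissues the labels repeat the numbers: over 13133 genes, same-numbered testis and liver libraries deviated together (6 correlations of 0.118 to 0.228, against -0.172 to 0.0365 for different numbers). The main fits of the testis and liver comparisons were unpaired, and a replicate block that pairs the numbers was run as an alternative. Same-numbered brain and liver libraries correlated at 0.0547 to 0.236, against -0.145 to 0.00736 for different numbers. For testis and brain the ranges overlapped, at -0.00263 to 0.242 for the same number and -0.169 to 0.0432 for different numbers.

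The members, the cell type lists and the superfamily list were chosen with earlier results of these data known. Genes named beside the members are the superfamily, genes called or nearest within 500 kb and the 5 most alike by Pearson r; F8a, DXBay18, Gabra3, Plxnb3, Cetn2 and the CCAAT and NRF1 words were picked after values or sequences were seen. Alternatives changed the pseudocount (0.01 or 1), the filter, the library sizes, the fit (voom, library quality weights, all 18 libraries, replicate block) and left out each library. Coordinates are from the files and checked against GENCODE M21, and promoters are RefSeq's for GRCm38.p6. Python 3.11.15 with pandas 2.3.3, scipy 1.17.1 and Biopython 1.88 did the rest. Protein sequences were not used here. The result of one cell type list and one gene among the most alike are not reported here.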

Additional observations from a re-analysis of the deposited data

How the results depend on the processing

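Of the member counts, those of the testis comparison were 0 under every alternative run. In liver the count of 0 became 3 in the fit to all 18 libraries, which include brain, and 0 to 1 when each library was left out. Nothing is read from the count of 3, since brain chose the members. In brain, which chose the members, the count of 2 became 5 with voom (21 of all genes, against 15), 4 with all 18 libraries (27 of all genes) and 2 to 3 with a library left out (8 to 12 of all genes), and nothing about stability is read from it. For WT testis minus WT liver it ran from 3 to 6 of the 7 members with a library left out. In those runs 18347 to 18962 of all 21737 genes were called, so these counts set no member apart. For the KO effect in testis minus that in liver it became 1 with a pseudocount of 1 and ran from 0 to 1 with a library left out. The cause of these changes was not tested.

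With the replicate block, which pairs testis and liver libraries of the same number, the call of no member changed. For WT testis minus WT liver 5 were still called, where 19131 of all genes were. Xlr4b differed by -4.52 (limma adjusted p = 0.0753) between the KO effects.

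Over all genes, the 3 called in liver became 87 with all 18 libraries and 2 to 5 with a library left out. The single testis call became 36 with all 18 libraries, 2 with quality weights or voom, 0 without a filter and 0 to 3 with a library left out. The 6 calls of the difference between KO effects became 3 with a pseudocount of 0.01 and 5 to 11 with a library left out.

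Directions turned round only for small values, none of them called: in testis, Xlr3a (-0.0360 with library totals, -0.0295 with voom, -0.0991 to 0.146 with a library left out) and Xlr4c (-0.0347 with library totals, -0.0325 with voom, -0.0666 to 0.133), Xlr (-0.297 to 0.0138 with a library left out), and Xlr3b for WT testis minus WT liver (-0.233 to 0.643).

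With a library left out, a choice made after seeing the data, the ratio of the summed level in KO over WT lay for Xlr4 between 5.44 and 17.3 in liver, between 20.1 and 95.4 in brain and between 0.954 and 1.05 in testis. For Xlr3 it lay between 1.11 and 1.98 in liver, between 3.40 and 5.00 in brain and between 0.766 and 1.08 in testis. From reads over summed length and library total, the Xlr4 ratio was 9.32 in liver and 33.7 in brain. The log2 difference of Xlr4b in liver ran from 2.33 to 6.43 over 13 alternatives (adjusted p = 8.35e-05 to 0.935). Depth limits the WT values: the Xlr4 sum rests on 3 reads in WT 2 of both liver and brain.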

Other observations

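In WT libraries the level of Xlr4a was highest in number 1 in both somatic tissues, a pattern picked after the values were seen. WT 1 held 3.14 FPKM in liver, where WT 2 and WT 3 held 0 and 0.700. WT 1 held 0.540 FPKM in brain, where WT 2 and WT 3 held 0.0240 and 0.0477. In testis WT 1 held 1.84 FPKM, and WT 2 and WT 3 held 1.95 and 2.05. The same libraries did not lead for Xlr4b in liver, where WT 3 was highest at 0.446 FPKM, against 0 in WT 1. The labels do not say that a number marks a mouse.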
